A study of Mus musculus with 4 samples.

Results

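The 10 genes described here encode transcription factors of the naive state of mouse embryonic stem cells (ESCs), namely Klf2, Klf4, Klf5, Tbx3, Esrrb, Tfcp2l1, Nr0b1, Nr5a2, Prdm14 and Zfp42. They were picked by name from the 55418 genes of the deposited count table by a rule that holds no measured value, though with earlier results of these data known, and all 10 were among the 18444 genes that passed the filter on low counts. RNA was sequenced from 4 libraries of the ESC line E14 (strain 12910la), grown on gelatin with serum and the cytokine LIF. The libraries came from 2 samples of wild-type (WT) cells and from 2 clones in which Pim3, a serine/threonine kinase gene, had been knocked out with CRISPR/Cas9 (Pim3-/-). Each Pim3-/- library is thus 1 clone, and which clone carries which replicate number is not given in the sources used here. The comparison asks how the RNA of these factors differed between WT and Pim3-/- ESCs.

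The naive state is that of the epiblast before implantation, and ESCs hold it with the help of factors that bind each other's genes and those of Pou5f1, Sox2 and Nanog. LIF acts through STAT3 on Klf4 and Tfcp2l1, PI3K signalling has been placed upstream of Tbx3, and release from the repressor TCF7L1 raises Esrrb and Klf2. Several of these genes are also used outside the epiblast, for example Tbx3 in extraembryonic endoderm and Klf5 in trophectoderm.

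The libraries held between 22029427 and 25668307 counts. Levels are CPM, counts scaled to a common library total of 1000000, after scaling with edgeR's TMM factors, which lay between 0.828 and 1.172. The word edgeR beside an adjusted p stands for its quasi-likelihood test, with Benjamini-Hochberg adjustment across the 18444 genes. The count of Pim3 was 4392 in WT replicate 1, 4953 in WT replicate 2, 4970 in the library labelled Pim3-/- replicate 1 and 4804 in that labelled replicate 2. Short changes of sequence in its exons need not alter a count over the whole gene, which therefore does not check the labels, and every direction below rests on them. Pou5f1, which marks ESCs, had at least 24659 counts in every library. Of 9 fibroblast markers, Col3a1, Dcn, Lum and Postn had at most 2 counts in any library, whereas Thy1 had 400 to 508, and the summed level of the 9 was 30.6 and 31 CPM in WT and 53.7 and 53.2 CPM in Pim3-/- ESCs. The libraries of a group differed by more than counting noise, with a chi-square per degree of freedom of 10.6 between the WT and 50.2 between the Pim3-/- libraries.

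Klf4 and Tbx3 rose in Pim3-/- ESCs, each to between 2 and 3 times its WT level. Nr5a2 was called lower only just (adjusted p = 0.0494, edgeR). Its call was lost with library totals (log2 fold change -0.06) and in the Wald test of DESeq2 (adjusted p = 0.0561). The other 7 factors did not pass an adjusted p of 0.05. At that threshold 17.6% of all tested genes were called higher and 16.2% lower, 33.8% in all. With a change of 3-fold asked for as well, which 8.47% of all genes passed upwards and 1.38% downwards, none of the 10 was called by edgeR or by DESeq2. The unadjusted p was under 0.05 for 4 of them, none of which reached 3-fold. Both Pim3-/- libraries lay above both WT libraries for Klf4, Klf5 and Tbx3, as for 38.3% of all genes, and below them for Nr0b1, Nr5a2 and Zfp42, as for 34.2%. For Klf2, Esrrb, Tfcp2l1 and Prdm14 the groups overlapped. Over the 10 factors the median log2 fold change was 0.03, beside 0.07 over all tested genes. In bulk RNA, fewer cells of a type and less RNA per cell cannot be told apart.

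**Figure D1:**
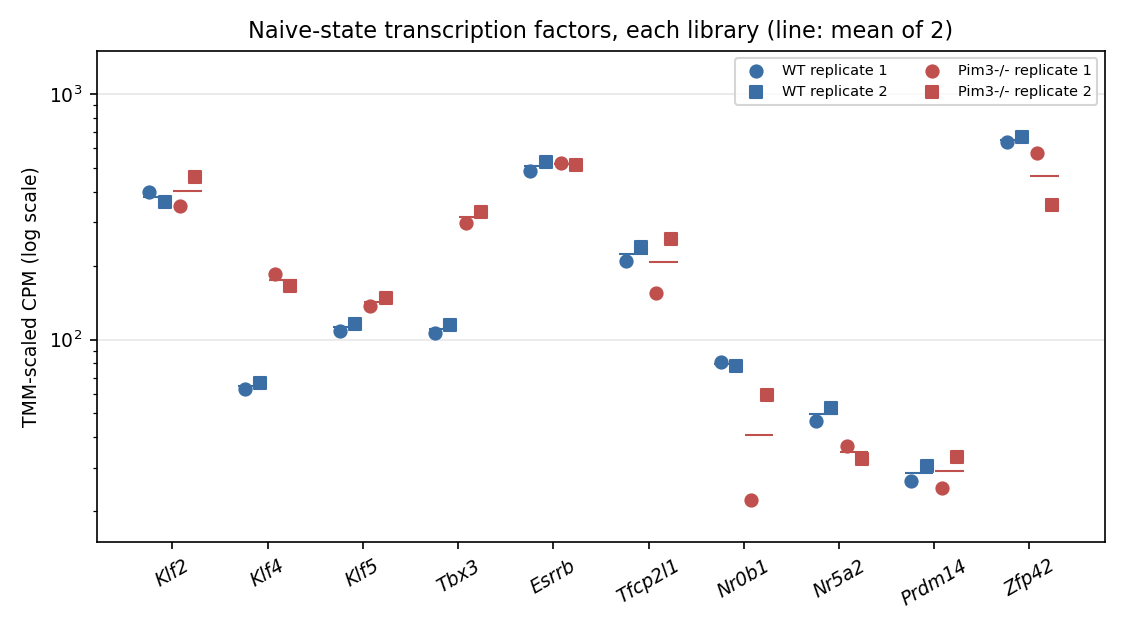
Level of each naive-state factor in each library, in TMM-scaled CPM on a log axis, with the mean of the 2 libraries of a group as a line. The Pim3-/- libraries stand above WT for Klf4, Klf5 and Tbx3 and below it for Nr0b1, Nr5a2 and Zfp42, and they lie far apart from each other for Nr0b1, Tfcp2l1 and Zfp42.

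Klf2, Klf4 and Klf5 are zinc finger factors of the Krüppel-like family that bind similar CACCC-type sequences and cover for each other in ESC self-renewal. Klf4, one of the reprogramming factors, lies on chromosome 4 from 55527143 to 55532466 (GRCm38). Its level was 62.9 and 66.6 CPM in WT ESCs and 185 and 165 CPM in the Pim3-/- clones. The lower Pim3-/- library was still far above both WT libraries, and neither pair spread widely. The means were 64.7 CPM ± 2.60 (SD, n = 2) and 175 CPM ± 14.1 (SD, n = 2). On the log2 scale they differed by 1.44 (95% confidence interval 1.04 to 1.83, standard error 0.17, adjusted p = 0.00369, edgeR). Without WT replicate 1 the log2 fold change was 1.34 and the gene was no longer called. With 1 library left out the value ran from 1.33 to 1.5. In the alternatives with all 4 libraries it was called each time, with an adjusted p of at most 0.00469 in edgeR.

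Klf5, which lies on chromosome 14 from 99298691 to 99315036, went from 108 and 116 CPM in WT to 137 and 147 CPM in Pim3-/- ESCs. The groups did not overlap, but the difference was small. Its log2 fold change of 0.34 (standard error 0.17, 95% confidence interval -0.04 to 0.73) did not pass the test (adjusted p = 0.143, edgeR). Scaled to library totals alone it was called, since the value then was 0.79 with an adjusted p of 0.0106 (edgeR). It also passed without Pim3-/- replicate 1, at 0.38 with an adjusted p of 0.0181 (edgeR), in a fit with a lone clone whose p-values are too small to compare, and over all alternatives the adjusted p ran from 0.0106 to 0.693.

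Klf2, on chromosome 8 from 72319033 to 72321656, had 397 and 362 CPM in WT and 350 and 457 CPM in Pim3-/- ESCs. Both WT libraries lay between the Pim3-/- ones. Its difference of 0.09 on the log2 scale (standard error 0.21, adjusted p = 0.76, edgeR) did not pass the test, and the 95% confidence interval, from -0.39 to 0.57, allows for a change in either direction. It was -0.13 without Pim3-/- replicate 2 and -0.06 without WT replicate 2. The 3 KLF genes thus differed in proportion. Of their summed CPM per kilobase of exon, Klf4 made up 8.04% and 9.09% in WT against 21.9% and 16.4% in Pim3-/- ESCs, and Klf2 83.9% and 81.6% against 68.6% and 75%. These shares are taken within a library, so that no scaling factor enters them, and no test was run on them.

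Tbx3, a T-box repressor that supports self-renewal and is also known for driving ESCs toward primitive endoderm, lies on chromosome 5 from 119670669 to 119684724. Its level was 106 and 115 CPM in WT ESCs and 298 and 331 CPM in the Pim3-/- clones. The groups were far apart and each was tight. The means were 110 CPM ± 5.98 (SD, n = 2) and 315 CPM ± 24 (SD, n = 2). On the log2 scale they differed by 1.51 (95% confidence interval 1.09 to 1.93, standard error 0.18, adjusted p = 0.00369, edgeR). Without WT replicate 1 the log2 fold change was 1.41 and the gene was no longer called. With 1 library left out the value ran from 1.41 to 1.57. In the alternatives with all 4 libraries it was called each time, with an adjusted p of at most 0.00469 in edgeR. The annotated antisense gene Tbx3os1 shares exon positions with Tbx3, and its counts were 55 and 90 in WT against 220 and 248 in Pim3-/- ESCs. Tbx3 itself had 2031 and 2593 against 7943 and 8545 counts, so the antisense counts were few beside its own. Whether the counting used the strand is not given in the sources used here, so reads of the pair cannot be told apart. The summed level of 13 primitive endoderm markers moved with the groups too, from 89.8 and 108 CPM in WT to 479 and 413 CPM in Pim3-/- ESCs. Most of each sum came from the basement membrane genes Lama1, Lamb1, Col4a1 and Col4a2. In the Pim3-/- libraries these had 105 and 102, 145 and 97.6, 128 and 135, and 54.7 and 54.3 CPM. The regulators Gata6, Gata4 and Sox17 had at most 8.99, 7.01 and 3.18 CPM in any library. The part of these markers in the value of Tbx3 was not tested.

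By profile Klf4 and Tbx3, the 2 factors called higher, were near each other. Over the 4 libraries, with each gene's log2 CPM centred on its mean, each was the nearest of the 10 factors to the other, at a root mean square distance of 0.12. Among 9650 other genes with a mean of at least 10 CPM, the nearest to Klf4 was Aire (distance 0.0396, log2 fold change 1.42) and the nearest to Tbx3 was Mrtfb (distance 0.0336, log2 fold change 1.54). Aire and Mrtfb were thus nearer to them than the 2 factors were to each other. These distances rest on 4 libraries in 2 groups, so they largely restate the fold changes and are no further evidence.

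Esrrb, Nr5a2 and Nr0b1 are members of the nuclear receptor family. Esrrb, the orphan receptor that stands in for Nanog in many assays, lies on chromosome 12 from 86361117 to 86521628. It had 486 and 528 CPM in WT and 522 and 516 CPM in Pim3-/- ESCs. Both Pim3-/- libraries lay between the WT ones. Its difference was 0.03 on the log2 scale (standard error 0.19, 95% confidence interval -0.40 to 0.47, adjusted p = 0.903, edgeR), and it was the steadiest of the 10 between the Pim3-/- libraries, with a log2 ratio of -0.02.

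Nr5a2, which binds the Pou5f1 gene and can take the place of Pou5f1 in reprogramming, lies on chromosome 1 from 136842571 to 136960448. It fell from 46.5 and 52.7 CPM in WT to 36.8 and 32.7 CPM in Pim3-/- ESCs. The groups did not overlap, at means of 49.6 CPM ± 4.35 (SD, n = 2) and 34.8 CPM ± 2.92 (SD, n = 2). The log2 fold change was -0.51 (standard error 0.17, 95% confidence interval -0.90 to -0.12), and the adjusted p of 0.0494 (edgeR) lay at the threshold. The call was lost with library totals, where the log2 fold change was -0.06, and in the Wald test of DESeq2 (-0.55, adjusted p = 0.0561). In the alternatives with all 4 libraries the adjusted p ran from 0.0375 (DESeq2 size factors, edgeR) to 0.8 (library totals, edgeR). The call was also lost without WT replicate 1 (-0.65) and without WT replicate 2 (-0.50), though the fold change was about as large. The gene outside the list with the nearest profile was Atf6, at a distance of 0.0237.

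Nr0b1, also called Dax1, encodes a receptor without a DNA-binding domain that represses other nuclear receptors and lies on the X chromosome from 86191764 to 86195947. It had 80.7 and 78.0 CPM in WT, 22.1 CPM in Pim3-/- replicate 1 and 59.5 CPM in replicate 2. Both Pim3-/- libraries were below WT, but they were further from each other than replicate 2 was from WT. The log2 ratio between them, 1.41, was larger than that of 98.0% of all tested genes. The log2 fold change of -0.96 (standard error 0.39, 95% confidence interval -1.87 to -0.05) did not pass the test (adjusted p = 0.0935, edgeR), whereas the Wald test of DESeq2, which did not call Nr5a2, called it lower with an adjusted p of 0.0185. Without Pim3-/- replicate 1 it was -0.43 and without replicate 2 it was -1.86, both called in fits whose p-values are too small to compare, and over all alternatives the adjusted p ran from 1.36e-28 to 0.304. Among 272 X-linked genes with a mean of at least 10 CPM, chosen after the values of Nr0b1 were seen, the median log2 ratio between the same libraries was 0.09, beside -0.05 for all genes of that level. Their median log2 fold change between the groups was -0.39, beside -0.18 for all genes of that level, and its part in the value of Nr0b1 was not tested.

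Tfcp2l1, a LIF and STAT3 target of the grainyhead family, lies on chromosome 1 from 118627945 to 118685168. It had 208 and 239 CPM in WT, 155 CPM in Pim3-/- replicate 1 and 256 CPM in replicate 2. The Pim3-/- libraries thus lay on either side of WT. Its difference was -0.12 on the log2 scale (standard error 0.26, adjusted p = 0.739, edgeR; 95% confidence interval -0.71 to 0.47), and its sign followed the library and the scaling, with 0.18 without Pim3-/- replicate 1, -0.54 without replicate 2 (adjusted p = 0.00109, edgeR, in a fit whose p-values are too small to compare) and 0.33 with library totals. Over all alternatives its adjusted p ran from 0.00109 to 0.921. The snRNA gene Gm23497, which shares exon positions with it, had between 38 and 185 counts, against 3986 to 6608 for Tfcp2l1.

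Prdm14, which restrains FGF signalling and DNA methylation in ESCs and is needed for germ cells, lies on chromosome 1 from 13113457 to 13127163. It had 26.6 and 30.6 CPM in WT and 24.9 and 33.3 CPM in Pim3-/- ESCs. Both WT libraries lay between the Pim3-/- ones. The difference of 0.03 on the log2 scale (standard error 0.20, adjusted p = 0.93, edgeR) did not pass the test, with a 95% confidence interval from -0.44 to 0.49.

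Zfp42, better known as Rex1 and used as a reporter of the naive state, lies on chromosome 8 from 43295063 to 43306980. It had 635 and 665 CPM in WT, 575 CPM in Pim3-/- replicate 1 and 354 CPM in replicate 2. Both Pim3-/- libraries were lower, and replicate 2 by far the more. The log2 fold change of -0.48 (standard error 0.26, 95% confidence interval -1.08 to 0.12) did not pass the test (adjusted p = 0.178, edgeR). It was -0.89 without replicate 1, called in a fit whose p-values are too small to compare, and -0.19 without replicate 2. With library totals it was -0.03, and over all alternatives the adjusted p ran from 1.85e-06 to 0.923.

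RefSeq promoter windows of GRCm38.p6, each from 250 bases before to 50 after an annotated start, were at hand for 7 of the 10 genes, all but Klf5, Tbx3 and Prdm14. They were searched on both strands for letters bound by the factors themselves and by their partners, as a description with no claim to a site. A KLF sequence, GGGNGTGG, was found in 3 of the 7 genes (Tfcp2l1, Nr5a2 and Zfp42) and in 19.7% of all genes with a window. The octamer ATGCAAAT of POU factors was found in Zfp42 alone and in 1.97% of all genes. The STAT sequence TTCCNGGAA (1.35% of all genes), TCAAGGTCA of ESRRB and NR5A2 (0.466%), AGGTGTGA of T-box factors (1.48%), a pair of CCAG with 6 bases between for TFCP2L1 (3.94%) and GGTCTCTAA of PRDM14 (0.3%) were in none of the 7. The stretches with a match are shown because they hold the letters bound by KLF4, whose RNA rose, and by POU5F1. They run 5′ to 3′ on the gene's strand, end before the start site and carry the matches in capitals.
Zfp42: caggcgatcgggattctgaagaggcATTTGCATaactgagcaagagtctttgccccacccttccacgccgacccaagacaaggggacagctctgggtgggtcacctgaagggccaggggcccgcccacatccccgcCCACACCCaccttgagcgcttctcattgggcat
Tfcp2l1: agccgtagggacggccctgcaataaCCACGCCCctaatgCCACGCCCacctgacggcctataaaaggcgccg
Nr5a2: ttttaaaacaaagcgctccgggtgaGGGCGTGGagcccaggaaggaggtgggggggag
The Zfp42 stretch is chr8:43307052-43307220 on the minus strand, with the octamer first, read from the other strand, and the KLF letters last. The Tfcp2l1 stretch is chr1:118627859-118627930 on the plus strand with the KLF letters at 2 places, and the Nr5a2 stretch, at an internal start, is chr1:136953755-136953812 on the minus strand. Binding was not measured, and the part of these letters in the values of the 3 genes was not tested.

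**Figure D2:**
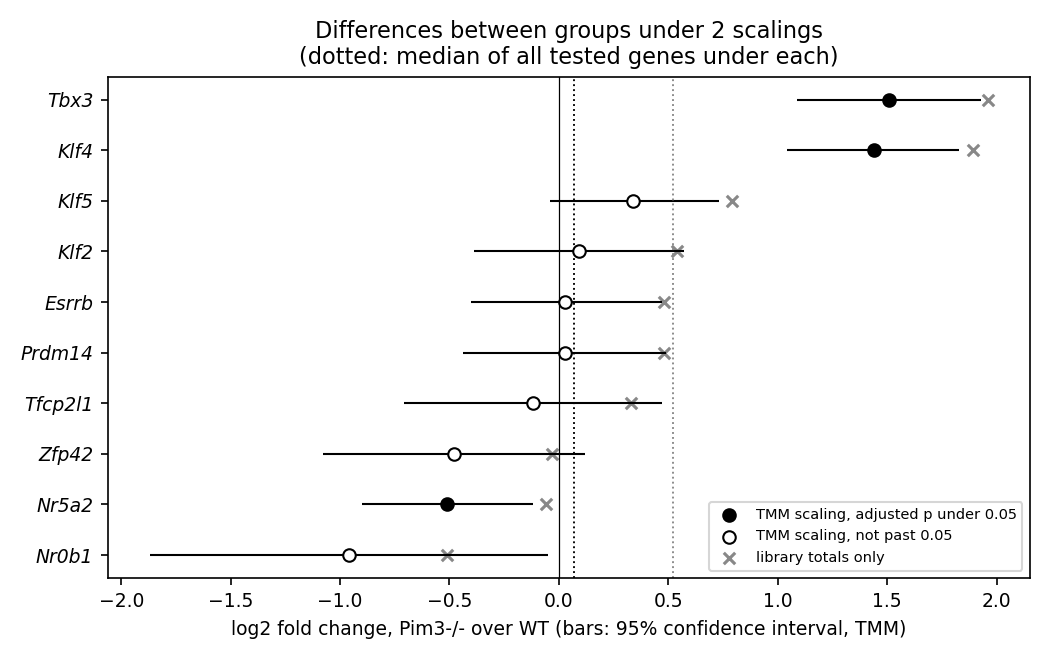
Log2 fold change of each factor between Pim3-/- and WT ESCs, with the 95% confidence interval under TMM scaling and a cross for the value with library totals only. Filled points passed an adjusted p of 0.05, and the dotted lines give the median of all tested genes, 0.07 with TMM factors and 0.52 with library totals.

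The scaling matters for the smaller differences. Scaling to library totals without TMM factors shifted the median over all genes by 0.45 on the log2 scale, from 0.07 to 0.52. The values of Klf4 and Tbx3 then were 1.89 and 1.96, both past a change of 3-fold, and those of Klf2, Esrrb and Prdm14 were 0.54, 0.48 and 0.48, close to the median of all genes. To leave the scaling out, each factor was set against the geometric mean of the 10 counts in its own library. On this log2 scale Klf4 stood at -1.09 in both WT libraries and at 0.42 and 0.04 in the Pim3-/- libraries. Tbx3 went from -0.33 and -0.31 to 1.11 and 1.05. Nr5a2 went from -1.52 and -1.43 to -1.90 and -2.29, and Nr0b1 from -0.73 and -0.86 to -2.64 and -1.43. The groups were apart for the same 6 genes as in TMM-scaled CPM, and Klf2, Esrrb, Tfcp2l1 and Prdm14 again overlapped. The reference was made of the 10 factors themselves, so a shift shared by all 10 cannot be seen. It does not show whether the same genes stay apart with library totals, where Nr5a2 was at -0.06 and Zfp42 at -0.03.

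Most of the factors differed more between the Pim3-/- clones than between the WT samples. Between the WT libraries the absolute log2 ratio of the 10 factors ran from 0.05 for Nr0b1 to 0.20 for Tfcp2l1 and Prdm14, beside a median of 0.16 over all tested genes. Between the Pim3-/- libraries it ran from 0.02 for Esrrb to 1.41 for Nr0b1, beside a median of 0.31. Nr0b1 and Tfcp2l1, with a log2 ratio of 0.72, were higher in replicate 2, and Zfp42, with -0.70, was higher in replicate 1. These 3 ratios were above those of 98.0%, 85.7% and 84.5% of all genes. Klf4 and Tbx3 differed by -0.16 and 0.16. With 1 library per clone, a difference between clones cannot be told apart from one between libraries.

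**Figure D3:**
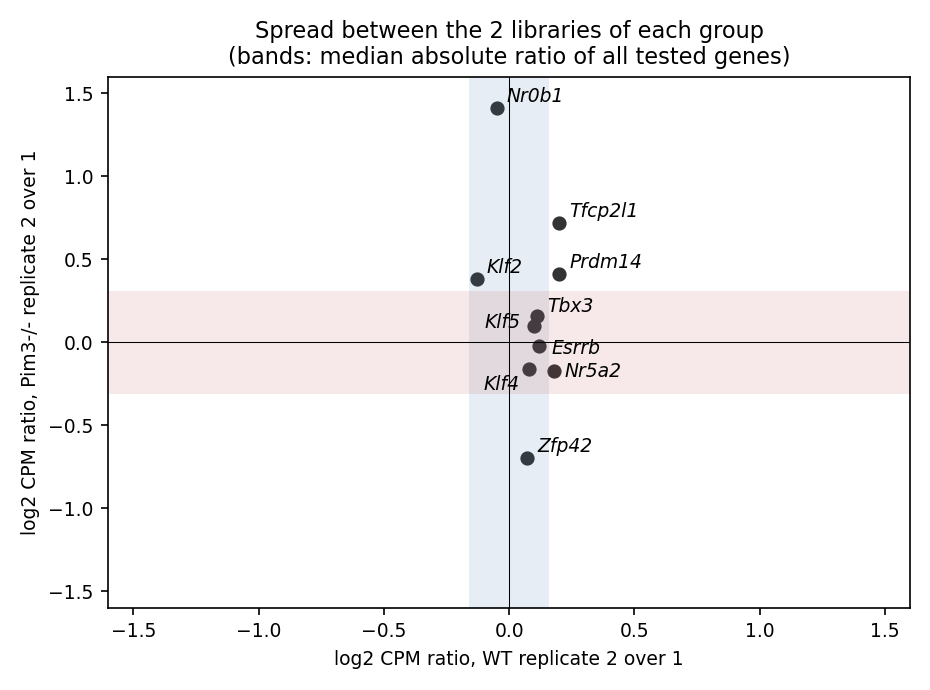
Log2 CPM ratio of replicate 2 over replicate 1 for each factor, between the WT libraries on the horizontal axis and between the Pim3-/- libraries on the vertical axis. The bands mark the median absolute ratio of all tested genes, 0.16 for WT and 0.31 for Pim3-/-, and Nr0b1, Tfcp2l1 and Zfp42 stand farthest from 0 on the vertical axis.

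To compare the factors with each other, CPM were divided by the exon length of each gene, taken as the union of its annotated exons in GENCODE M21. In WT ESCs Zfp42 was highest, at 346 CPM per kilobase ± 11.4 (SD, n = 2), followed by Klf2 at 206 ± 13.5, Esrrb at 83.8 ± 4.96 and Nr0b1 at 43.9 ± 1.03. Tfcp2l1 (23.7) and Klf5 (21.5) overlapped in their 2 libraries, as did Klf5 and Klf4 (21.2). Below them stood Tbx3 (16.6), Prdm14 (11.1) and Nr5a2 (8.41). In Pim3-/- ESCs Klf4 ranked 4 at 57.4 CPM per kilobase ± 4.61 (SD, n = 2) and Tbx3 ranked 5 at 47.5 ± 3.62. Nr0b1 came to 22.6 ± 14.6, where it overlapped with its neighbours Klf5 (27.3) and Tfcp2l1 (21.8). Zfp42 at 247 ± 83.2 and Klf2 at 219 ± 40.8 now overlapped, and in Pim3-/- replicate 2 Klf2 was the highest of the 10. Nr5a2 was lowest in both groups. In WT the 10 factors lay between the 68.5 and 98.7 percentiles of CPM per kilobase over all tested genes, and Klf4 moved from the 83.5 to the 95.4 percentile between the groups.

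**Figure D4:**
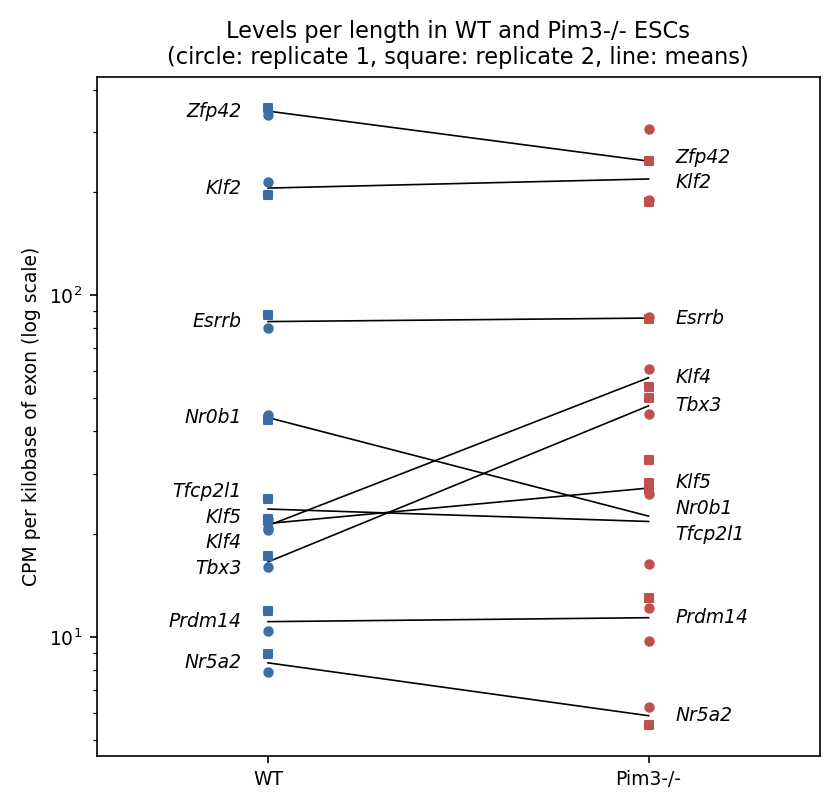
CPM per kilobase of exon (log axis) of the 10 factors in WT and Pim3-/- ESCs, one point per library and a line between the group means. Klf4 and Tbx3 pass Klf5, Tfcp2l1 and Nr0b1, while Zfp42, Klf2 and Esrrb stay on top.

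The factors are well expressed, and well expressed genes were more often called lower than higher in Pim3-/- ESCs. Of 583 genes with a log2 mean CPM over 8, among them Klf2, Esrrb and Zfp42, 54.4% were called lower and 2.92% higher, with a median log2 fold change of -0.73. Klf2, Esrrb and Zfp42, at 0.09, 0.03 and -0.48, thus all stood above that median. Among 2499 genes between 6 and 8 on that scale, where Klf4, Klf5, Tbx3 and Tfcp2l1 lie, 6.36% were called higher and 39.3% lower, with a median of -0.41. For Nr0b1, Nr5a2 and Prdm14, in the range from 4 to 6, the median was -0.09 over 5040 genes. Of those genes 15.2% were called higher and 22.5% lower. Library totals raise all log2 fold changes alike, by 0.45 at the median of all genes.

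For the signals that feed the naive factors, 3 gene lists stand beside all tested genes, of which 17.6% were called higher and 16.2% lower. Of 9 genes of the LIF receptor, JAK kinases, STAT3 and its inhibitors, none passed edgeR's or DESeq2's test, and 1, Il6st, had an unadjusted p under 0.05 in edgeR. Stat3 was at 0.20 on the log2 scale (standard error 0.16, adjusted p = 0.35, edgeR) and Socs3, its feedback inhibitor, at -0.03 (standard error 0.17, adjusted p = 0.898, edgeR). Of 10 genes of Wnt transduction and the TCF factors only Lef1 was called, higher by 2.87 on the log2 scale (standard error 0.56, adjusted p = 0.0101, edgeR), from 39 and 33 to 522 and 154 counts. Tcf7l1, the repressor of Esrrb and Klf2, was at 0.44 (standard error 0.24, adjusted p = 0.191, edgeR). Of 14 FGF and ERK genes, Spry4, a feedback inhibitor, rose by 2.07 (adjusted p = 0.00263, edgeR) and Fgfr1 by 0.54 (adjusted p = 0.0364, edgeR), and Mapk3, the gene of ERK1, fell by 0.69 (adjusted p = 0.0169, edgeR). The medians of the 3 lists were 0.15, 0.25 and 0.08, beside 0.07 for all genes. With library totals 5, 6 and 6 genes of these lists were called higher and none lower.

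Of 12 core and general ESC genes, 5 were called lower and 1 higher, with a median of -0.31. Dppa4 fell by 1.22, Pou5f1 by 1.12 and Utf1 by 0.97 on the log2 scale, with adjusted p-values of 0.00531, 0.00993 and 0.0209 (edgeR). Nanog fell by 0.90 (adjusted p = 0.0155, edgeR), a call that was lost with library totals (-0.45, adjusted p = 0.0992, edgeR), while Sox2, at 0.38, did not pass the test (adjusted p = 0.218, edgeR) and Sall4 rose by 0.84 (adjusted p = 0.0116, edgeR). Of 16 other genes of the naive state, 6 were called lower and 1 higher, with a median of -0.47. Dppa3 fell by 2.44, Sox15 by 1.56 and Mycn by 0.97 (adjusted p = 0.0121, 0.00319 and 0.0088, edgeR), and Jam2 rose by 0.69 (adjusted p = 0.019, edgeR). With library totals these counts moved to 2 lower and 5 higher in the first list and 2 lower and 5 higher in the second, where Pou5f1, Dppa4, Dppa3 and Sox15 were the genes called lower. Without WT replicate 1 none of the first list and 2 of the second were called lower. Of the core genes 11 of 12 had a log2 mean CPM over 6, and all 5 called lower were among these, while of the other naive genes 9 of 16 did, with 2 of them called lower. At such levels 39.3% (6 to 8) and 54.4% (over 8) of all genes were called lower, and the count of core genes lies in that range. The remaining other naive genes called lower were Sox15, Mycn, Gbx2 and Dppa3. They lie at levels where 22.5% (4 to 6) and 9.11% (2 to 4) of all genes were called lower. The 10 factors were not tested against these lists.

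**Figure D5:**
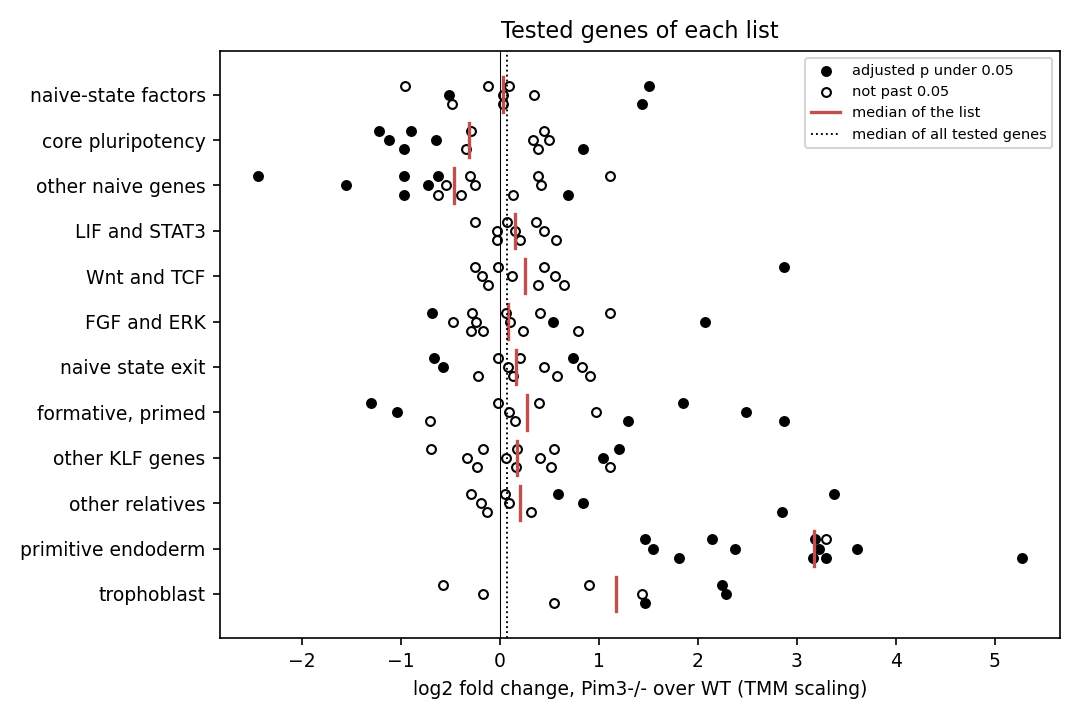
Log2 fold changes (TMM scaling) of the tested genes of each list, filled where the adjusted p was under 0.05, with the median of each list in red and that of all tested genes as a dotted line. The median of the naive-state factors lies at 0.03, those of the core and other naive genes at -0.31 and -0.47, and 11 of the 12 tested primitive endoderm markers are filled on the right.

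Genes of the next states did not move as a block. Of 12 tested formative and primed genes, 4 were called higher and 2 lower, beside 17.6% and 16.2% of all tested genes. Besides Lef1, Sox3 rose by 2.49 and Zic2 by 1.85 (adjusted p = 0.00486 and 0.00686, edgeR), and Otx2 rose by 1.29 (adjusted p = 0.0101, edgeR). The de novo methyltransferase gene Dnmt3b fell by 1.30 and Pou3f1 by 1.04 (adjusted p = 0.00636 and 0.024, edgeR), and Fgf5, the classical mark of the primed state, had at most 2 counts in any library. In a list of 12 genes around the exit from the naive state, 1 was called higher and 2 lower, beside the same shares of all genes. Flcn rose by 0.74 (adjusted p = 0.0187, edgeR) and Zfp706 fell by 0.67 (adjusted p = 0.0235, edgeR). Tfe3 was listed not as needed for the exit but because FLCN keeps its protein out of the nucleus. It fell by 0.58 (adjusted p = 0.0267, edgeR).

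Of the relatives of the factors, Klf13 and Klf9 were the called members among 13 tested KLF genes, higher by 1.20 and 1.04 (adjusted p = 0.0048 and 0.00579, edgeR). That count is near the share of all tested genes called higher, 17.6%. Tbx2, which lies in a T-box subfamily with Tbx3, went from 4 and 2 counts in WT to 42 and 39 in Pim3-/- ESCs (log2 fold change 3.37, standard error 0.58, adjusted p = 0.00731, edgeR), and Tbx4 went from 6 and 4 to 57 and 36 counts. Tfcp2, the ubiquitous relative of Tfcp2l1, rose by 0.84 (adjusted p = 0.0195, edgeR), and Ubp1 by 0.59 (adjusted p = 0.0281, edgeR). Of the 10 tested genes of this second list 4 were called higher and none lower (edgeR and DESeq2), beside 17.6% and 16.2% of all genes. Without WT replicate 1 or 2 no gene of either list was called higher, and with at least 10 counts asked for in every library 2 of the second list were. Esrra, Yy1 and Prdm1 were at -0.29, -0.19 and 0.05 and were not called.

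Of the marker lists of other cell types, those of primitive endoderm and the 2C-like state had most of their tested genes called, and those of primitive streak and neuroectoderm none. The counts below stand beside 17.6% of all tested genes called higher and 16.2% called lower. Of the 13 primitive endoderm markers, whose summed level stands beside Tbx3 above, 12 were tested and 11 called higher, 6 without WT replicate 1. Sox7 went from 3 and 0 counts to 91 and 67, Sox17 1 and 5 against 85 and 10, and Foxa2 0 and 0 against 5 and 7, while Col4a2 rose by 3.29 on the log2 scale (adjusted p = 0.000808, edgeR). Of 10 trophoblast markers 8 were tested and 3 called higher, Gata3, Eomes and Ascl2. Of the 8, 6 had a positive log2 fold change, while Krt8 and Krt18, at -0.17 and -0.58, were not called. The summed levels of the 10 were 88.9 and 86.5 CPM in WT and 101 and 102 CPM in Pim3-/- ESCs. Most of each sum was Krt8 and Krt18, so it says little of the other markers. Krt8 had 41.3 and 40.4 CPM in WT against 35 and 37.6, and Krt18 33.3 and 30.6 against 24.2 and 18.5. The defining markers Cdx2 and Elf5 had at most 12 and 6 counts in any library. All 8 genes of the 2C-like state were called higher, 4 without WT replicate 1 or 2, with summed levels of 17.5 and 14.6 CPM in WT, 163 CPM in Pim3-/- replicate 1 and 45.7 CPM in replicate 2. Of the 9 fibroblast markers 4 were tested, and Pdgfrb and Twist1 were called higher. None of 3 tested primitive streak markers was called by edgeR or DESeq2 or had an unadjusted p under 0.05. None of 3 tested neuroectoderm markers was called by edgeR, where all 3 had an unadjusted p under 0.05, and DESeq2 called 1 lower. The part of such cells in the values of Tbx3, Klf4 and the other factors was not tested.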

How the data were processed

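RNA was sequenced from 4 E14 ESC libraries. The authors deposited raw counts per gene symbol and per transposable element subfamily, and the latter table was not used here. The study's methods name Cutadapt, Hisat2, mm10 and Ensembl genes, and the submitters' processing notes name Trim Galore, STAR, featureCounts and GRCm38. Tool versions, the strand setting and the treatment of reads with several locations are not given in the sources used here. All 55418 symbols matched GENCODE M21 (GRCm38), which gave positions and exon lengths. Reads of near-identical or overlapping genes may be split.

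Low counts were removed with edgeR 4.0.16 (filterByExpr, at least 10 counts, 15 in total), and genes were scaled with TMM factors and compared with glmQLFTest (R 4.3.3), with Benjamini-Hochberg adjustment over 18444 genes. Confidence intervals used the moderated degrees of freedom (7.64 in all). Errors beside means are SDs of 2 libraries, the log2 ratios between libraries used a pseudocount of 0.5 CPM, and an exact permutation test of 2 against 2 cannot go below 0.333, so none was run. The study names the WT material as 2 biological samples, and nothing says that they were independent cultures. The p-values set the group difference against the spread between these libraries, moderated over all genes. Of the 7.64 degrees of freedom, 5.64 come from that prior. The factors and the gene lists were chosen with earlier results of these data known. Named are the 10 factors, Pim3, Pou5f1, Sox2, Nanog, Stat3, Socs3 and Tcf7l1, up to 3 called genes per list and direction with the largest changes, and for each called factor the gene with the nearest profile. Other genes were named after their values were seen. Alternatives were DESeq2 1.42.0 size factors, library totals, no filter, at least 10 counts in every library, the DESeq2 Wald test, a replicate block and the omission of each library. Figures were drawn with matplotlib 3.10.9 in Python 3.11.15.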

Additional observations from a re-analysis of the deposited data

How the results depend on the processing

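Klf4 and Tbx3 were higher in all alternatives and called in all but that without WT replicate 1, and neither Esrrb, Klf2 nor Prdm14 was called in any. Signs changed for Esrrb and Prdm14 (-0.01 each with DESeq2 size factors and in its Wald test, 0.00 and -0.01 without a filter, -0.08 and -0.12 without WT replicate 1), for Tfcp2l1 (0.33) and Pim3 (0.19) with library totals, for Klf2 (-0.06 without WT replicate 2, -0.13 without Pim3-/- replicate 2), for Prdm14 without Pim3-/- replicate 2 (-0.22) and for Tfcp2l1 without Pim3-/- replicate 1 (0.18). With 1 library left out, Klf2 ran from -0.13 to 0.25, Esrrb from -0.08 to 0.03, Tfcp2l1 from -0.54 to 0.18 and Prdm14 from -0.22 to 0.20.

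The number of factors called lower, 1 in the report, was 0 with library totals, without a filter and with at least 10 counts in every library, and the 1 called in the Wald test and under the replicate block was Nr0b1 in place of Nr5a2. The number at least 3-fold higher was 2 with library totals and 1 with at least 10 counts in every library. Library totals raise every fold change, and 6606 genes of the table were called higher and 1092 lower with them, against 3246 and 2987. The called genes then were 5 higher and 2 lower for the core and for the other naive genes, 5 higher for LIF and STAT3, 6 higher for Wnt and TCF, 6 higher and 0 lower for FGF and ERK and for exit genes, 1 lower for formative and primed genes, and 5, 5 and 2 higher for KLF, trophoblast and neuroectoderm genes. With at least 10 counts in every library, 2 Wnt and TCF genes, 3 exit genes, 2 other relatives and 1 neuroectoderm gene were higher. In the Wald test and without a filter, 1 FGF and ERK gene and 2 exit genes were higher and 1 neuroectoderm gene was lower. With DESeq2 size factors 1 trophoblast and 1 neuroectoderm gene were lower. The cause of the other changes was not tested.

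Replicate numbers were not taken to pair the samples, since nothing in the labels ties them and the deviations of same-numbered libraries correlated at 0.0306 across genes. With the replicate block 3403 genes were called higher and 3272 lower, 2 Wnt and TCF genes and 3 exit genes were higher, and 1 KLF, 1 trophoblast and 1 neuroectoderm gene were lower. Nr0b1 was then called lower (log2 fold change -1.12, adjusted p = 0.00932, edgeR) and Nr5a2 was not (-0.51, adjusted p = 0.0504, edgeR).

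With 1 library left out, the lone library of a group is assumed to vary like the other group, and without a Pim3-/- library the prior degrees of freedom were infinite, so those p-values are too small to compare. Between 402 and 5393 genes of the table were then called higher and 373 to 5255 lower, fewest without WT replicate 1. Of the factors, 0 to 3 were called higher, 0 to 3 lower and 0 to 1 at least 3-fold lower. The ranges for higher and lower calls were 0 to 4 and 0 to 6 for core genes, 0 to 3 and 2 to 10 for other naive genes, 0 to 2 and 0 to 1 for LIF and STAT3, 1 to 4 and 0 for Wnt and TCF, 1 to 5 and 0 to 5 for FGF and ERK, 0 to 5 and 0 to 3 for exit genes, 3 to 6 and 1 to 3 for formative and primed genes, 0 to 4 and 0 to 3 for KLF genes, 0 to 7 and 0 to 1 for other relatives, 6 to 12 and 0 for primitive endoderm, 1 to 5 and 0 to 1 for trophoblast, 0 to 2 and 0 to 1 for neuroectoderm, 1 to 3 and 0 for fibroblast and 4 to 8 and 0 for 2C genes.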
